A study of Mus musculus with 24 samples.

Results

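The genes described here code for proteins that coat or build lipid droplets: the 3 CIDE genes Cidea, Cideb and Cidec, the perilipin genes Plin2, Plin3, Plin4 and Plin5, the FIT genes Fitm1 and Fitm2, and Hilpda. They were taken by name from the liver counts, 10 of 23972 genes, and all 10 were found and tested, since no gene was filtered out for low counts. They were proposed with their differences between genotypes already known. For the comparison of genotypes their values are therefore given as a description, without p-values, whereas the effect of FGF21 was tested.

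A lipid droplet is a core of neutral lipid under a single layer of phospholipid, and the proteins on that layer govern how the droplet grows and how its triglyceride is broken down. CIDE proteins collect where droplets touch and let lipid pass from the smaller to the larger one. Cidec (also called Fsp27) and Cidea are best known from fat cells and from fatty liver, while Cideb is the CIDE protein of normal hepatocytes, where it also takes part in loading lipid onto very-low-density lipoprotein. Perilipins cover the droplet and control the access of lipases. Plin2 is the main coat protein of the hepatocyte, Plin3 is made in most cells and moves between cytosol and droplet, Plin4 is abundant in fat and muscle, and Plin5 ties droplets to mitochondria in tissues that burn fat. FIT proteins act in the membrane of the endoplasmic reticulum where droplets form, and HILPDA is a small inhibitor of the lipase ATGL.

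Livers came from 24 female mice housed at 22°C on a high-fat diet, aged 12 to 14 weeks at the start. All mice carried Lmna fl/fl, an Lmna allele with loxP sites. Controls were Adipoq-Cre-, and ADKO mice were Adipoq-Cre+, so that recombination is driven in adipocytes, not in hepatocytes, and the liver was studied as a tissue that responds to lipodystrophy elsewhere. After 4 weeks of diet the mice received AAV8 carrying mouse FGF21, a hormone of energy balance, or vehicle, and livers were taken 8 weeks later. There were 7 control livers with vehicle, 3 control livers with FGF21, 6 ADKO livers with vehicle, and 8 ADKO livers with FGF21, 1 library each. The labels call the treatment a rescue, and FGF21 was taken from the study's description of its liver experiment. The strain background of the ADKO mice was C57BL/6J.

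The promoters of 4 members are shown because these genes differ in what they did: Cidec, Plin4 and Fitm1 had higher levels in ADKO livers, and Plin2 had the highest CPM of the 10 genes in every group. RefSeq start sites gave 12 windows for 9 of the 10 members, each running from 250 bases before to 50 bases after the start, on GRCm38.p6 and on the strand of the gene. Cidec has 2 start sites, chr6:113435711-113436010 and chr6:113434715-113435014, and gene-level counts do not separate the transcripts made from them. Plin4 (chr17:56109733-56110032) and Plin2 (chr4:86670010-86670309) are, like Cidec, on the minus strand, and Fitm1 (chr14:55575424-55575723) is on the plus strand. Capitals mark motif matches found on either strand.
Cidec, first start: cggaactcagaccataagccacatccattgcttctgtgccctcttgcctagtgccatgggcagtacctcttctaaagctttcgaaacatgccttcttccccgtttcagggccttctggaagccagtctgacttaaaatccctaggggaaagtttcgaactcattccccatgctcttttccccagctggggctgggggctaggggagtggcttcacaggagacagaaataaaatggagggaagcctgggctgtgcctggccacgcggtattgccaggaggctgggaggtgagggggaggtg
Cidec, second start: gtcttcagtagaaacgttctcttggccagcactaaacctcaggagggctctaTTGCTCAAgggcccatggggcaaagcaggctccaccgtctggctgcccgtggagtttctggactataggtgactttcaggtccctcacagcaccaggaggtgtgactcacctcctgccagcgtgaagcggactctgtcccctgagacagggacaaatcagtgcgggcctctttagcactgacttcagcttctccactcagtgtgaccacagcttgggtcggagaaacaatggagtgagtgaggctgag
Plin4: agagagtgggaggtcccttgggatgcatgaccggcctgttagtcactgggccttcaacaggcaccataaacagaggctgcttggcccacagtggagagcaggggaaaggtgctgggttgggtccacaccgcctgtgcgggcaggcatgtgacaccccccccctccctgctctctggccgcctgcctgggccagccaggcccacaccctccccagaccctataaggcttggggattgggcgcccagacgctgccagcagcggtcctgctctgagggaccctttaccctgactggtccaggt
Fitm1: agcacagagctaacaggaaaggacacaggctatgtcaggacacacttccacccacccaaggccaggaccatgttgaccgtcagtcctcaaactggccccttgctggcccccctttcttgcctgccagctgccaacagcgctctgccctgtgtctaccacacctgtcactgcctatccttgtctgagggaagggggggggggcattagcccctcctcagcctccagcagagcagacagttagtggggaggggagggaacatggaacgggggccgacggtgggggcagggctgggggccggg
Plin2: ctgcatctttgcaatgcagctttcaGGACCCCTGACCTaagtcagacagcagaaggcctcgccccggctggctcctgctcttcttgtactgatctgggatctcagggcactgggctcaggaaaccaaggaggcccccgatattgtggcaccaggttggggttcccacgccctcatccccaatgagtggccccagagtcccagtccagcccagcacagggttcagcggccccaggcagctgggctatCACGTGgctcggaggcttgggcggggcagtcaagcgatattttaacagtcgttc

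Motifs of factors known to act on droplet genes were searched on both strands. The direct repeat DR1, in which 2 copies of AGGTCA are spaced by 1 base and which PPAR with RXR binds, was counted with at most 2 mismatches, and 3.86% of all 32851 windows hold it. Among the members only Plin2 had it, from base -225, where it overlaps a match to the single AGGTCA from base -218, a motif in 16.3% of windows. Plin5 also had the single repeat, in each of its windows. CACGTG, the E-box, is in 7.15% of windows and stood at base -4 of Plin2. TTGCNNAA, the CCAAT/enhancer-binding protein motif, is in 10.8% of windows and stood at base -198 of the second Cidec start. None of the motifs was in the windows of Plin4, Fitm1 or the first Cidec start, which says only that these letters are not in those 300 bases.

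On GRCm38, Plin3, Plin4 and Plin5 lie on chromosome 17 and Cideb and Fitm1 on chromosome 14. Plin4 (chromosome 17, 56100591 to 56109803) is 1.80 kb from Plin5 (56111601 to 56117596), and Cideb (chromosome 14, 55754050 to 55758458) is 177 kb from Fitm1 (55575617 to 55576954). Cideb and Plin4 overlap a gene on the opposite strand, Nop9 and Hdgfl2, and Cidea, Fitm1 and Fitm2 overlap an antisense gene. The libraries kept strand, but whether the counting used it was not stated, so reads of these genes and their partners may not be fully separated.

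Totals ran from 19863304 to 21510054 counts per library, and 3 counts, taken as the floor, were 0.124 to 0.176 CPM, that is, counts on a gene scaled to a fixed library total. On the second principal component control FGF21 replicate 3 and ADKO FGF21 replicate 7 stood far from the rest, at -53.4 and -69.0, with fewer reads on long genes. Control vehicle replicate 3 was next on that side, at -15.4, but close to ADKO FGF21 replicate 2, at -9.36. Control vehicle replicate 3 is counted with the first 2 below as the 3 libraries that stood apart. The slopes of log2 CPM on log2 gene length were -0.29, -0.33 and, for control vehicle replicate 3, -0.15. Results that rest on these 3 libraries are given with and without them. Lmna itself was not lower in ADKO livers, at 26.7 ± 2.57 CPM with vehicle against 18.6 ± 2.47 in controls (SD, n = 6 and 7). The Cre acts in adipocytes, so liver Lmna does not check the genotype labels. Fgf21 counts did not set treated livers apart. They were at 5.36 ± 2.41 CPM in ADKO livers with FGF21 (n = 8) and 7.99 ± 2.48 with vehicle (n = 6). The paper reports that plasma FGF21 rose after transduction in this experiment, disproportionately so in ADKO mice. Whether transcripts of the viral FGF21 would be counted on Fgf21 was not tested, so liver Fgf21 does not check the treatment labels. Hepatocyte markers made up the tissue as labelled, with summed levels from 68812 to 146166 CPM. In bulk liver, fewer cells of a type and less RNA per cell cannot be told apart.

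In control livers with vehicle, 2 coat genes dominated. Per kb of exon, Plin2 was at 211 ± 72.2 CPM and Cideb at 182 ± 28 (SD, n = 7), and the ranges of these 2 overlapped. Plin5 followed at 27.0 ± 3.22 CPM per kb, clear of both neighbours in the order. Fitm2, Fitm1 and Plin3 formed a level group, from 14.3 to 12.6 CPM per kb on average. Plin4 (3.35), Hilpda (2.27) and Cidec (1.55 CPM per kb) were lower still, each overlapping the next. Cidea, at 0.0177 CPM per kb, was essentially unread.

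In ADKO livers with vehicle the order was different, with Cidec among its leading genes. Cidec stood at 62.1 ± 19 CPM per kb (SD, n = 6), behind Plin2 at 293 ± 58.4 and Cideb at 181 ± 11.7, and it overlapped Fitm1 at 47.2 ± 3.14. Both had higher means than Plin5, at 29.0 ± 6.29 CPM per kb, whose range overlapped those of Cidec and of Cidea, the latter at 19.9 ± 14.2. Cidea, Fitm2, Plin4 and Plin3 overlapped in turn, and Hilpda was last at 2.76 ± 0.292. Cidea and Cidec, the last genes of the order in controls, thus had ranges that overlapped that of Plin5 in ADKO livers.

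**Figure D1:**
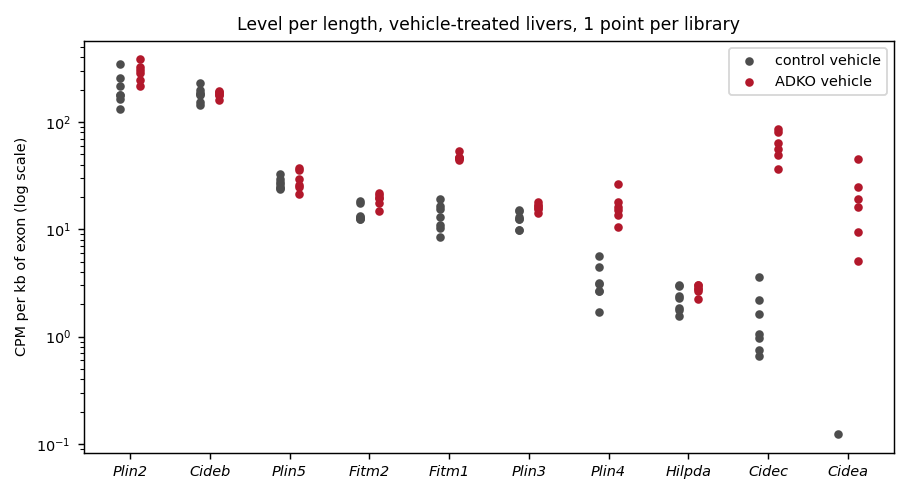
Level of each gene in CPM per kb of exon on a log axis, 1 point per library, for the 7 control and 6 ADKO livers with vehicle, ordered by the mean in controls. Libraries at 0 are not drawn, so that Cidea shows 1 control point, from 3 counts. Cidec, Cidea, Plin4 and Fitm1 are the genes whose points separate.

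Among the CIDE genes, Cidea and Cidec were high in ADKO livers and Cideb was level. Cidea had 0 counts in 6 of the 7 control livers with vehicle and 3 counts, 0.138 CPM, in replicate 4. In ADKO livers with vehicle it ran from 5.60 to 50.4 CPM with a median of 19.6, so that every ADKO library was above every control library. Against the floor of 3 counts per library, its mean of 22.2 ± 15.8 CPM (SD, n = 6) was at least 152-fold higher.

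Cidec was at 1.22 to 6.72 CPM in control livers with vehicle, with a median of 1.97, and at 67.4 to 160 CPM in ADKO livers, with a median of 111. The lowest ADKO library was above the highest control library by a wide margin. The difference was 5.31 ± 0.569 on the log2 scale (edgeR, SE). For Cidea, with controls at or under the floor, only the lower bound above is given. The control with the most Cidec, replicate 4, was also the one with counts on Cidea. Cideb, by contrast, was at 271 ± 41.6 CPM in controls (n = 7) and 270 ± 17.4 in ADKO livers (n = 6), and its log2 difference was -0.01 ± 0.175 with a 95% interval from -0.37 to 0.35.

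Of the perilipins, Plin4 set the genotypes apart. It ran from 9.73 to 32.4 CPM in control livers with vehicle (median 18.0) and from 60.7 to 152 CPM in ADKO livers (median 90.7), with no overlap. The log2 difference was 2.31 ± 0.233 (SE), a ratio of the means of 4.95. Plin5, which lies beside Plin4 on the chromosome, was at 56.4 ± 6.72 and 60.6 ± 13.1 CPM, a log2 difference of 0.10 ± 0.143.

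The 2 perilipins that most cells make differed less. Plin2 was at 468 to 1218 CPM in controls (median 624) and 766 to 1343 CPM in ADKO livers (median 1043), and the groups overlapped, with 1 ADKO library above every control library. Its log2 difference of 0.48 ± 0.191 was lowered by 1 control. Without control vehicle replicate 2, the highest of its group, the difference was 0.64 and past the thresholds used for calls. Plin3 was at 37.4 to 57.3 CPM in controls (median 47.7) and 53.5 to 68.0 CPM in ADKO livers (median 60.7). Of the 6 ADKO libraries 5 were above every control, and the log2 difference was 0.35 ± 0.108.

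Of the 2 FIT genes, Fitm1, the form best known from muscle, separated the genotypes and Fitm2, the form of most tissues, did so less. Fitm1 ran from 8.21 to 18.4 CPM in control livers with vehicle (median 12.8) and from 43.2 to 51.8 CPM in ADKO livers (median 44.8). The groups did not overlap, the ADKO livers lay close together, and the log2 difference was 1.82 ± 0.257 (SE). Fitm2 was at 56.7 ± 10.1 CPM in controls and 75.4 ± 10 in ADKO livers, with 4 of 6 ADKO libraries above every control and a log2 difference of 0.41 ± 0.115. Hilpda was low in both, at 2.50 ± 0.644 and 3.04 ± 0.322 CPM, and overlapped throughout.

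A gene was called where the edgeR adjusted p over all genes was under 0.05 and the fold change above 1.5. By this rule 4 of the 10 members were called higher in ADKO livers with vehicle, Cidea, Cidec, Plin4 and Fitm1, and 0 lower. Of all genes, 5.12% were called higher and 3.36% lower. The same 4 members were those whose groups did not overlap, a separation that 4.22% of all genes showed in this direction. The median log2 difference of the members was 0.44, the same with Cidea at its lower bound, and that of all genes 0.00. Since the members were proposed for these differences, nothing is read from the counts.

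**Figure D2:**
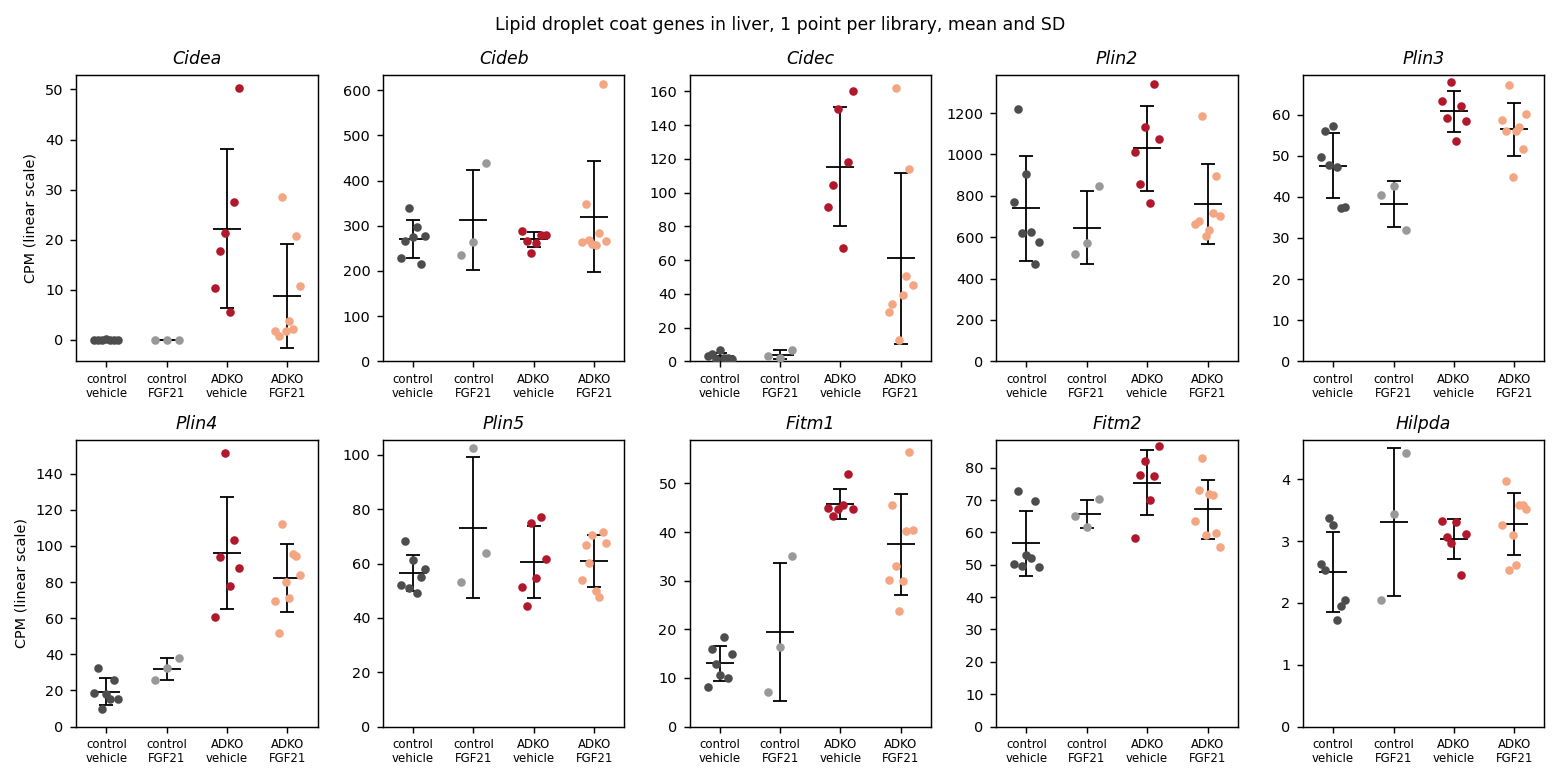
CPM of the 10 genes on linear axes in the 4 groups, 1 point per library, with horizontal bars for the mean and the SD (7, 3, 6 and 8 libraries). The points of Cidea, Cidec, Plin4 and Fitm1 in ADKO livers with vehicle lie above all points of controls with vehicle, and 1 ADKO FGF21 library stands far above its group in Cideb.

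The labels hold animal numbers with 3 or 4 digits, and these went with the groups: 6 of 7 controls with vehicle had 3 digits and 5 of 6 ADKO mice with vehicle had 4, as did all 3 controls with FGF21. What the digits mark was not given. Within the 4-digit numbers, the 1 control with vehicle had 1.22 CPM of Cidec, 15.5 of Plin4 and 15.0 of Fitm1, below the 5 ADKO livers, whose lowest values were 67.4, 77.9 and 43.2 CPM. Within the 3-digit numbers, the 1 ADKO liver with vehicle had 91.4, 60.7 and 44.9 CPM, above all 6 controls, whose highest values were 6.72, 32.4 and 18.4. With the number of digits as a covariate the log2 differences were 5.35, 2.18 and 1.66, and 4 members were called.

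With FGF21 in both genotypes, Cidea, Cidec and Plin4 again stood higher in ADKO livers without overlap. Cidea was at 0 counts in all 3 controls and at 0.755 to 28.5 CPM in the 8 ADKO livers (median 2.96), at least 56.5-fold higher by the mean against the floor. Cidec was at 3.33, 1.90 and 6.70 CPM in controls and 12.8 to 162 CPM in ADKO livers (median 42.4), with no overlap and a log2 difference of 3.95 ± 0.764 (SE). Plin4 was at 25.8, 32.7 and 37.8 CPM against 51.6 to 112 (median 82.0), also with no overlap, and its log2 difference was 1.36 ± 0.298.

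Fitm1 overlapped here. The 3 controls with FGF21 had 7.13, 16.4 and 35.0 CPM and the ADKO livers 23.8 to 56.4 (median 36.7), and the log2 difference was 0.95 ± 0.325. The control at 35.0 is the library of that group that stood apart. Without the 3 libraries that stood apart the log2 difference was 1.57, and without that control alone it was 1.67, and Fitm1 was then called. Plin3 separated in this comparison, at 40.4, 42.5 and 32.0 CPM in controls and 44.7 to 67.2 in ADKO livers (median 56.5), with a log2 difference of 0.56 ± 0.136, below the fold used for calls. For Plin2 the log2 difference was 0.23 ± 0.236, for Plin5 -0.26 ± 0.172, for Cideb 0.04 ± 0.214, for Fitm2 0.03 ± 0.14 and for Hilpda -0.01 ± 0.212.

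Cidea, Cidec and Plin4 were called higher with FGF21, 3 of 10 members, where 1.61% of all genes were. Cidea, Cidec, Plin3 and Plin4 did not overlap, 4 of 10 members, where 2.98% of all genes were separated upward. The median log2 difference of the members was 0.40 and that of all genes 0.02. With 3 controls, these calls leaned on single libraries. Leaving out any of the 3 controls ended the call of Cidea, as did leaving out the 3 libraries that stood apart, and leaving out control FGF21 replicate 1 or 2 ended that of Plin4, at log2 differences of 1.22 and 1.37, and brought in Plin3, at 0.60 and 0.64. Leaving out ADKO FGF21 replicate 4 also brought in Plin3, at 0.60.

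The effect of FGF21 within each genotype was tested. The vehicle livers used here also entered the genotype differences that were known when the genes were proposed. The direction of the members in these comparisons and in the interaction is therefore not independent of that choice. In ADKO livers 7 of the 10 members had lower values with FGF21 than with vehicle, but none passed the test. Cidec ran from 67.4 to 160 CPM with vehicle (median 111) and from 12.8 to 162 CPM with FGF21 (median 42.4), and 6 of the 8 FGF21 libraries were below every vehicle library whereas 1, replicate 3, was above them all. The log2 difference was -0.92 ± 0.455, with a 95% interval from -1.87 to 0.03 (edgeR quasi-likelihood test, Benjamini-Hochberg adjusted p = 0.704).

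Cidea had the lowest estimate. In the 8 FGF21 libraries it was at 1.84, 0.755, 28.5, 1.84, 3.76, 2.16, 20.7 and 10.8 CPM in order of replicate, against 5.60 to 50.4 with vehicle, and 5 of the 8 were below every vehicle library. Its log2 difference was -1.34 ± 0.657, with an interval from -2.72 to 0.04 (edgeR adjusted p = 0.704). FGF21 replicates 3 and 7 were the highest of their group in Cidea and in Cidec.

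Plin2 had 6 of 8 FGF21 libraries below every vehicle library. It ran from 604 to 1185 CPM with FGF21 (median 690.2) and from 766 to 1343 with vehicle (median 1043), and replicate 3 was again the highest of the FGF21 livers. The log2 difference was -0.44 ± 0.185, with an interval from -0.82 to -0.06 (edgeR adjusted p = 0.704), so that the interval for this gene alone lay below 0 whereas the p adjusted over all genes missed the threshold. Fitm1 also had 6 of 8 libraries below the vehicle range, and 1 above it, with a log2 difference of -0.29 ± 0.242 (edgeR adjusted p = 0.781).

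The other members differed little between treatments in ADKO livers. Plin4 was at 82.3 ± 18.7 CPM with FGF21 and 95.8 ± 31 with vehicle (log2 difference -0.22, interval -0.67 to 0.23), and Fitm2 at 67.2 ± 9.17 and 75.4 ± 10 (log2 difference -0.17, interval -0.39 to 0.06). Plin3 had a log2 difference of -0.11, Plin5 of 0.01 and Hilpda of 0.10. Cideb was higher on average with FGF21, at 320.2 ± 122 CPM against 270 ± 17.4, with 1 library, replicate 7, at 614 CPM. Without the libraries that stood apart its log2 difference went from 0.25 to 0.04.

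By edgeR 0 members and 0 of all 23972 genes, 0%, were called between FGF21 and vehicle in ADKO livers, while 1 member, Plin2, and 6.71% of all genes had an unadjusted p under 0.05. DESeq2 called 15 genes and 0 members. A single library weighed on this comparison. Without ADKO FGF21 replicate 3, edgeR called 61 genes, still 0 of them members, and the log2 differences were -1.31 for Cidec, -1.91 for Cidea and -0.56 for Plin2, with edgeR adjusted p of 0.210, 0.246 and 0.182. The median log2 difference of the members was -0.19 and that of all genes 0.00.

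**Figure D3:**
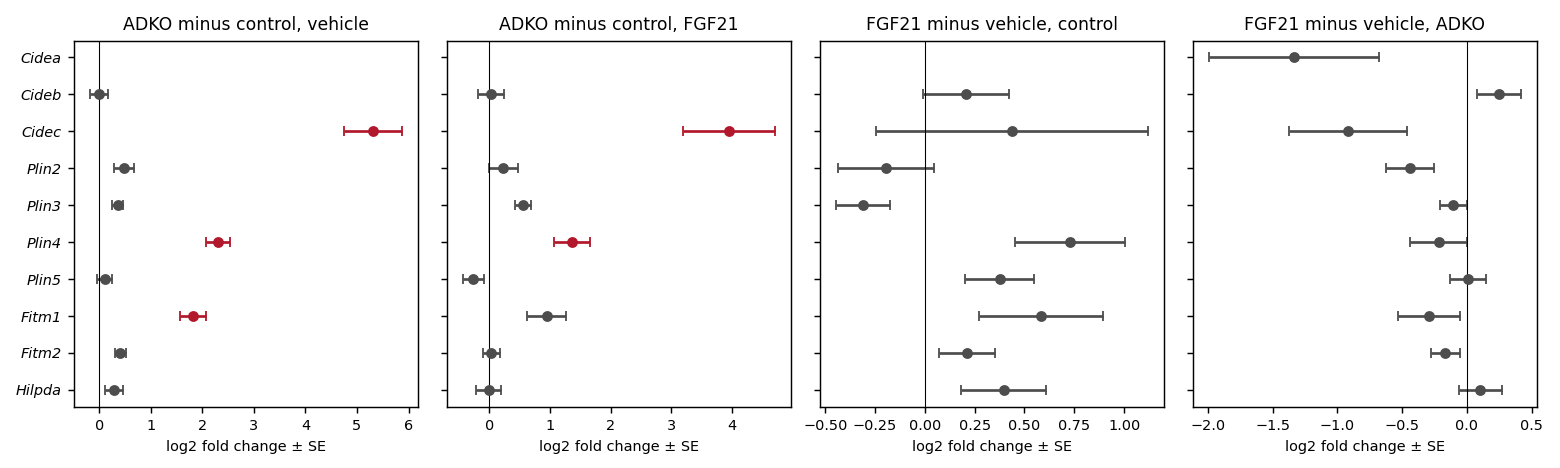
Log2 fold changes with SE from the edgeR fit for the 10 genes in 4 comparisons, each panel on its own axis, with called genes in red. Cidea is drawn only for FGF21 in ADKO livers, since its controls were at or under the floor of 3 counts. Cidec, Plin4 and, with vehicle, Fitm1 are red between genotypes, and no gene is red for FGF21.

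In control livers FGF21 called 0 members and 13 genes, 0.0542% of all (edgeR), and DESeq2 called 38 genes and 0 members. At an unadjusted p under 0.05 were 3 members, Plin4, Plin3 and Plin5, and 6.16% of all genes. Plin4 was at 25.8, 32.7 and 37.8 CPM with FGF21 and 9.73 to 32.4 with vehicle (median 18.0), and 2 of the 3 FGF21 libraries were above every vehicle library. Its log2 difference was 0.73 ± 0.276, with an interval that began at 0.16 (edgeR adjusted p = 0.706), and 0.48 without the libraries that stood apart. In controls the digits of the animal numbers went with treatment, 6 of 7 vehicle livers having 3 and all 3 FGF21 livers 4, and with them as a covariate edgeR called 0 genes and the log2 difference of Plin4 was 0.58.

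Plin3 had the opposite sign, with a log2 difference of -0.31 ± 0.136 (edgeR adjusted p = 0.768), and Plin5 was at 53.2, 103 and 63.8 CPM against 49.2 to 68.3, a log2 difference of 0.38 ± 0.174 (edgeR adjusted p = 0.771) carried by replicate 2. For Cidec the estimate was 0.44 with a wide interval, from -0.99 to 1.86, and for Plin2 -0.20, from -0.69 to 0.30. Cidea was at or under the floor in both groups and no fold is given.

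Whether FGF21 acted differently in the 2 genotypes was tested as an interaction, which called 0 members and 1 gene of all, 0.00417% (edgeR), or 13 genes and 0 members by DESeq2. The estimate was -0.95 ± 0.352 for Plin4 (log2, ADKO effect minus control effect, interval -1.67 to -0.22), -0.87 ± 0.395 for Fitm1 (interval -1.69 to -0.06) and -0.38 ± 0.180 for Fitm2 (interval -0.74 to -0.01). These 3 had an unadjusted p under 0.05, as did 4.86% of all genes, and each had an edgeR adjusted p of 0.984. For Plin4 the 2 effects had opposite signs, 0.73 in controls and -0.22 in ADKO livers. For Cidec the interaction was -1.36, with an interval from -3.06 to 0.35.

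Livers of the same group differed widely in some members, and these deviations from the group mean, which the choice of genes did not use, were compared across the 24 libraries. Of the 45 pairs of members 4 passed a two-sided permutation test within groups, all with the same sign of deviation. The share that would pass among pairs of other genes was not computed, so the count is not read as a trait of the members. Cidec and Plin2 went together most closely, with Pearson's r = 0.785 (permutation p = 2e-05, adjusted p = 0.0009) and Spearman's rho = 0.819 (permutation p = 2e-05). Leaving out the 2 libraries whose Cidec level was farthest from the median of all libraries gave r = 0.769. They were picked by level, not by deviation from the group, so this value does not test the largest deviations. The 14 ADKO livers alone gave r = 0.822. A liver with more Cidec than its group thus had more Plin2 in controls as well as in ADKO mice, with r = 0.781 in the 10 controls.

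Cidea and Cidec had r = 0.713 (permutation p = 0.00021, adjusted p = 0.00345) and rho = 0.669 (permutation p = 2e-05). Since Cidea was unread in 9 of 10 controls, the ADKO livers carry this value, with r = 0.814 over 14. Cidea and Plin2 had r = 0.529 (permutation p = 0.00183, adjusted p = 0.0206) and rho = 0.515 (permutation p = 0.00412). Leaving out the 2 libraries farthest from the median in Cidea level gave r = 0.714 for Cidea with Cidec and r = 0.542 for Cidea with Plin2. These too were picked by level over all groups, not by deviation from the group.

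The fourth pair was Cideb and Fitm1, with r = 0.734 (permutation p = 0.00023, adjusted p = 0.00345) and rho = 0.795 (permutation p = 3e-05). Both were at the highest of their groups in control FGF21 replicate 3, at 440 and 35.0 CPM, and ADKO FGF21 replicate 7, at 614 and 56.4 CPM, which are 2 of the libraries that stood apart. Leaving out the 2 libraries farthest from the median in Cideb level gave r = 0.609, and leaving out the 3 that stood apart gave r = 0.705. Without those 3, 7 pairs passed in place of 4. The step moved pairs of Plin3, whose r with Cidec went from 0.495 to 0.813 and with Plin2 from 0.556 to 0.822, and pairs of Cideb, whose r with Cidea went from 0.224 to -0.213 and with Plin4 from -0.137 to -0.513.

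**Figure D4:**
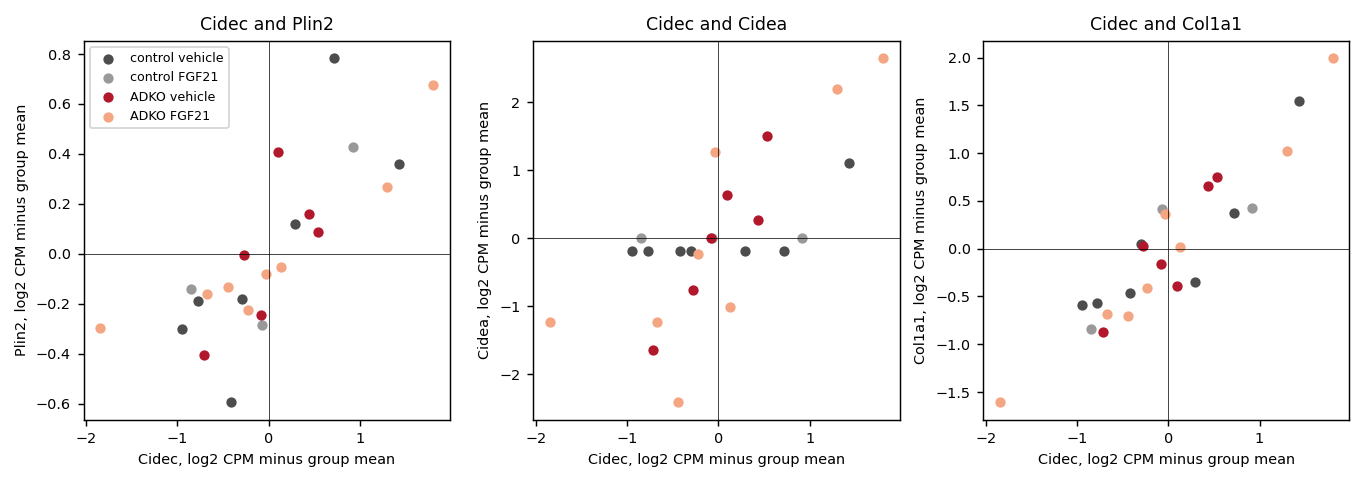
Deviations of log2 CPM from the group mean, Cidec on the horizontal axis and Plin2, Cidea or Col1a1 on the vertical axis, 1 point per library in the color of its group. Points rise together in each panel, with r = 0.785, 0.713 and 0.93, and the controls lie almost flat for Cidea, which was at 0 in all but 1 of them.

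Among the 12482 genes whose log2 CPM averaged 0 or more, the non-members most like Cidec in these deviations were Col1a1 (r = 0.93), Ly6d (0.90) and Col3a1 (0.90), that is, the chains of fibrillar collagens I and III and a surface protein. Their r were 0.96, 0.93 and 0.93 in the 14 ADKO livers alone. Most like Plin2 were Sars (0.89), a seryl-tRNA synthetase, and the tubulins Tubb2a (0.85) and Tubb4b (0.83). These genes were picked by their likeness over the same 24 libraries, so no test is given.

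Other droplet proteins were compared between genotypes as well. The lists used from here on were chosen with earlier results of these data known. Adjusted p-values printed for their genes show only that the genes met the call, and are not independent support. In these lists, rose and fell mean called by both thresholds. Of all genes, 5.12% were called higher and 3.36% lower with vehicle, and 1.61% higher with FGF21. Since the lists were chosen with results known, nothing is read from their counts. Of 20 proteins of droplet formation or surface outside the members, 3 rose in ADKO livers with vehicle and 0 fell, with a median log2 difference of 0.05. Ldah (log2 0.27) met the adjusted p but not the fold. Acsl3, the acyl-CoA synthetase of nascent droplets, rose from 14.3 ± 1.9 to 24.1 ± 6.71 CPM (log2 0.75 ± 0.151, edgeR adjusted p = 0.000888). Hsd17b13, a droplet enzyme of the hepatocyte, rose from 353 ± 112 to 554 ± 97 CPM (log2 0.65 ± 0.192, edgeR adjusted p = 0.0199). Cyb5r3, a reductase, rose from 319 ± 52.9 to 487 ± 49.6 CPM (log2 0.61 ± 0.114, edgeR adjusted p = 0.000397). With FGF21 in both genotypes, Acsl3 and Cyb5r3 were called and 0 fell.

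Among 7 lipases and their regulators, 2 rose with vehicle and 0 fell, and the median log2 difference was 0.43. Mgll (log2 0.43) met the adjusted p but not the fold. Lipa, the lysosomal acid lipase, rose from 173 ± 17.9 to 287 ± 31.4 CPM (log2 0.74 ± 0.121, edgeR adjusted p = 9.22e-05), and Abhd5, the coactivator of ATGL on the droplet, from 19.9 ± 1.52 to 30.2 ± 1.17 CPM (log2 0.60 ± 0.0984, edgeR adjusted p = 7.99e-05). Pnpla2, which codes for ATGL, was at 103 ± 14.8 and 108 ± 17.6 CPM and did not pass. With FGF21, Lipa rose. G0s2, an inhibitor of ATGL named here after its values were seen, fell, at 232 ± 254 CPM in 3 controls and 51.6 ± 13.7 in 8 ADKO livers. Its controls spread widely, and only 2 of the 8 ADKO livers were below every control. With vehicle G0s2 was not called (log2 -0.83, edgeR adjusted p = 0.190).

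Of 14 transcription factors that act on droplet genes, 1 rose and 1 fell with vehicle, and the median log2 difference was -0.09. Cebpa (log2 -0.48), Creb3l3 (-0.43), Rxra (-0.36), Nr1h3 (-0.31) and Hif1a (0.52) met the adjusted p but not the fold. For Cebpa, Creb3l3, Rxra and Hif1a the groups did not overlap. Pparg, the driver of the fat cell program that also acts on Cidea and Cidec, rose from 12.1 ± 2.57 to 22.6 ± 3.15 CPM (log2 0.90 ± 0.130, edgeR adjusted p = 1.74e-05), with all 6 ADKO libraries above every control. Mlxipl, which codes for the glucose-responsive factor ChREBP, fell from 222 ± 26.8 to 115 ± 13.3 CPM (log2 -0.95 ± 0.130, edgeR adjusted p = 8.99e-06), with all 6 below. Pparg and Mlxipl were called in the same directions with FGF21. Between FGF21 and vehicle, 0 genes of these 3 lists were called in either genotype by edgeR.

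Because Cidea, Cidec and Plin4 are also fat cell genes, and Plin4, Plin5 and Fitm1 muscle genes, markers of those tissues were read in the same libraries. Of 8 adipocyte markers, Adipoq, Lep, Plin1 and Retn averaged at most 0.179 CPM in every group, Lep was at 0 in all ADKO livers, and Adipoq was at 0 in all 8 ADKO livers with FGF21. The summed level was 28.3 to 40.2 CPM in controls with vehicle, 25.3 to 33.5 in controls with FGF21, 44.7 to 51.3 in ADKO livers with vehicle and 34.5 to 66.5 with FGF21. Most of it was Ucp1 and Fabp4. Of the markers, Fabp4 rose in ADKO livers with vehicle, from 7.75 ± 1.39 to 19.6 ± 4.06 CPM (edgeR adjusted p = 0.000279), while Adrb3 fell. Ucp1, at 18.9 ± 2.47 and 24.8 ± 2.81 CPM (log2 0.39), met the adjusted p with vehicle but not the fold. With FGF21 in both genotypes, Ucp1 rose from 14.5 ± 2.29 to 22.5 ± 1.54 CPM (log2 0.63), Fabp4 rose again and Adrb3 fell again. Plin1, the perilipin of the fat cell, was at 0.0148 CPM on average in ADKO livers with vehicle, where Cidec was at 115 CPM.

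Of 5 skeletal muscle markers the sum was at most 0.270 CPM in 22 of the 24 libraries. ADKO FGF21 replicates 2 and 5 held 22.9 and 12.8 CPM. In these 2, Plin4 was at 51.6 and 71.2 CPM and Fitm1 at 45.6 and 29.9, inside the range of the other ADKO livers with FGF21 except that 51.6 was the lowest Plin4 of the group. Leaving out either library left the log2 difference of Plin4 between genotypes with FGF21 at 1.44 and 1.39. For Fitm1 it was then 0.90 and 0.99, and for Plin5 -0.28 and -0.23.

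Some liver cell markers also differed. Of 6 hepatocyte markers 2 fell in ADKO livers with vehicle, Cyp2e1 and Serpina1c, and their summed level was 70205 to 106156 CPM against 83751 to 144249 in controls. Of 6 macrophage markers Gpnmb rose, and of 5 stellate cell markers Lrat rose, while 0 of 4 cholangiocyte and 0 of 4 endothelial markers were called. The summed levels of macrophage markers (medians of 339 CPM in ADKO livers and 393 in controls, with vehicle) and of stellate markers (98.4 to 130 and 89.9 to 130) overlapped between genotypes. Clec4f, the largest part of the macrophage sum, was at 155 and 224 CPM, whereas Trem2 was at 4.52 and 1.99, both uncalled. Sums of cholangiocyte markers (7.06 to 10.1 and 3.74 to 7.96 CPM, medians 8.24 and 5.49) and of endothelial markers (149 to 202 and 184 to 240, medians 182 and 214) overlapped too. The part of these cells in the levels of the droplet genes was not tested.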

How the data were processed

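RNA of 24 mouse livers was read as polyA-selected, strand-specific libraries. The deposited values are counts per gene, which the authors made without normalization. The submitters' processing notes name cutadapt 4.8, FastQC 0.11.8, STAR 2.7.8a, RSEM 1.3.3 and GRCm38, and how whole counts were made from RSEM estimates was not stated. The methods and the labels name different sequencing providers. By the methods, the authors removed genes at 0 in all samples and tested with DESeq2. All 23972 genes were used, 23926 of them located in GENCODE M21, and 0 columns of values lacked a sample. Every library is 1 mouse.

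After TMM scaling, 1 model of the 4 groups was fitted to all genes by the quasi-likelihood method of edgeR 4.0.16 (R 4.3.3), with robust dispersions. As in the study, a call needed a Benjamini-Hochberg adjusted p under 0.05, here over all genes, and over 1.5-fold difference. The script was tested on simulated counts. Log2 CPM used a prior count of 2. Alternatives were DESeq2 1.42.0, its size factors, filterByExpr, a fit of the compared groups alone, the number of digits of the animal number or the slope on gene length as covariate, and leaving out libraries. Pairs of members were tested by 100000 permutations within groups. Members, lists and tests were chosen with earlier results of these data known. All members are named, with up to 3 genes of each other list that were called with vehicle with log2 CPM averaging 0 or more and the largest changes, the 3 genes most like Cidec and Plin2, and markers by list. The library totals, 19863304 to 21510054 counts, limit genes such as Cidea in controls, and the floor used there covers counting error only. The intervals come from the edgeR fit and also hold the spread between libraries.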

Additional observations from a re-analysis of the deposited data

Results flagged for a closer look

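In groups of 4 to 10 libraries, the highest or lowest library was compared with its nearest neighbor by Dixon's rule. Over 29 groups of libraries, one for each gene and group with enough libraries, 2 were marked, and chance marks about 1 in 20.

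Cideb in ADKO FGF21 replicate 7, at 614 CPM, stood far above the other 7 livers of its group, of which the next was at 349 CPM, a gap of 0.653 of the range where 0.526 is the critical value. This is 1 of the 3 libraries that stood apart, with the most negative slope on gene length, -0.33. Fitm1 in ADKO vehicle replicate 5, at 51.8 CPM, was above the next liver at 45.5 CPM by 0.713 of a narrow range, where 0.625 is critical.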

How the results depend on the processing

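No paired analysis was possible because the labels carry animal numbers that groups do not share. The counts of members called kept within 1.5 times of their values under the alternatives run, except that 1 member, in place of 3, was called between genotypes with FGF21 in a fit of the compared groups alone, where Cidec missed the threshold at a log2 difference of 3.94 and Plin4 was called. Leaving out 1 library at a time gave 4 to 5 members with vehicle, 2 to 4 with FGF21, 0 to 0 for FGF21 in controls, in ADKO livers and for the interaction, and 3 to 6 pairs. Without the 3 libraries that stood apart, 7 pairs passed in place of 4. Of 1060 values of single members under alternatives, 0 of those called changed sign, 8 lost and 8 gained a call, all but 1 of them (Plin2 with vehicle) between genotypes with FGF21. DESeq2 and the gene length covariate brought in Fitm1 there, at 0.92 and 1.25.

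Calls over all genes moved more. Between genotypes they were 3623 with the adjusted p alone against 2033 with vehicle, and with FGF21 344 in the compared groups and 402 without the libraries that stood apart, against 690, with 339 without control FGF21 replicate 3 and 1149 without ADKO FGF21 replicate 7. For FGF21 in controls they were 13, and 0 with the number series as covariate, 38 by DESeq2, 3 without control FGF21 replicate 2 and 26 without control vehicle replicate 6. For FGF21 in ADKO livers they were 0, and 15 by DESeq2 and 61 without ADKO FGF21 replicate 3. For the interaction they were 1, and 0 with the number series, 13 by DESeq2, 5 without the libraries that stood apart, and 0 to 5 when 1 library was left out. The cause was not tested. The 3 controls with FGF21 limit what can be seen of FGF21 in controls and of the interaction.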
